A study of Mus musculus with 11 samples.

Results

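The Nduf genes encode the nuclear subunits and several assembly factors of respiratory complex I (NADH:ubiquinone oxidoreductase). All genes were taken whose RefSeq symbol, reached through the accession of the array probe, begins with Nduf and whose probe was well above background in at least 5 of the 22 array channels. This gave 46 genes of 26082 features tested, each measured by its brightest probe. The 46 genes were well above background in all 22 channels, Ndufv1 among them. The RefSeq gene table holds 54 Nduf symbols, and for 8 of them no probe was matched, Ndufb1 among these. The members were 7 core subunits, 9 accessory subunits of the matrix arm, 9 of the proximal membrane arm, 10 of the distal membrane arm, the acyl carrier Ndufab1, 8 assembly factors, and Ndufa4 with its paralog Ndufa4l2. Core subunits here are the nuclear ones only. Of the 7 core subunits encoded by mitochondrial DNA, 0 were measured.

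RNA came from the right hemisphere cortex of 22 C57/Bl6J mice, all between 5 and 7 months of age. It was hybridised to 11 Agilent 2-colour arrays that each carried 1 mouse per colour. The TC group (6 mice) carried GFA2-tTa/TetO-VP16-CREB and had a focal cryolesion, and the WTC group (5 mice) was wild type with the same lesion. The T group (5 mice) carried the transgenes without a lesion, and the WT group (6 mice) was wild type without a lesion. The lesion was made with a dry ice pellet held on the brain surface for 30 s, 3 days before the mice were killed. VP16-CREB joins the activator CREB to the VP16 activation domain and is active without stimulation, and GFA2 is a GFAP promoter fragment used to direct expression to astrocytes. The samples were bulk tissue, so fewer cells of a type and less RNA per cell cannot be told apart.

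Complex I takes electrons from NADH through a flavin and a chain of iron-sulfur clusters to ubiquinone in its matrix arm, and pumps protons through its membrane arm. The 7 core subunits measured here hold the flavin, the clusters and the quinone site, while the accessory subunits stabilise the complex and the assembly factors build it. Neurons depend on mitochondrial respiration for much of their ATP, and complex I is the main entry point of electrons from NADH.

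Promoter sequences are shown for 5 members because the transgene encodes an active CREB and because these genes carry the contrasts described below or hold the palindromic CREB site (CRE). RefSeq promoters of 300 bases (GRCm38.p6) were found for 40 of the 46 members, in 42 promoters. Of these 42 promoters, 7.14% hold the CRE letters TGACGTCA, against 1.79% of all 32851 promoters, and they are those of Ndufa10, Ndufa11 and Ndufb2. The shorter site TGACG, which is also part of the full CRE, was in 42.9% of member promoters and 20.8% of all promoters. The NRF1 letters TGCGCATGC were in 7.14% of member promoters (Ndufa6, Ndufa8 and Ndufaf4) and 1.52% of all, and the YY1 letters AAGATGGC in 19% of member promoters and 2.75% of all. The ERR letters TCAAGGTCA were in 0 of the 42 member promoters and 0.423% of all. Both strands were searched, and a match describes letters only. The 250 bases before each start are given 5′ to 3′ on the strand of the gene, with the CRE in capitals. Ndufa10 lies at chr1:92473759-92474008 (minus strand), Ndufa11 at chr17:56717512-56717761 (plus), Ndufb2 at chr6:39592315-39592564 (plus), Ndufv1 at chr19:4012756-4013005 (minus) and Ndufab1 at chr7:122101849-122102098 (minus). In this stretch the promoters of Ndufv1 and Ndufab1 have no full CRE.
Ndufa10: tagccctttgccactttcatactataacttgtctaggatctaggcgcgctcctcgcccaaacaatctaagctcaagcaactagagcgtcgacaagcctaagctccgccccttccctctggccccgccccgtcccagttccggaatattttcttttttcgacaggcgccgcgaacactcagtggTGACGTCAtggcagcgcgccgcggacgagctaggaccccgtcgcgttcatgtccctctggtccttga
Ndufa11: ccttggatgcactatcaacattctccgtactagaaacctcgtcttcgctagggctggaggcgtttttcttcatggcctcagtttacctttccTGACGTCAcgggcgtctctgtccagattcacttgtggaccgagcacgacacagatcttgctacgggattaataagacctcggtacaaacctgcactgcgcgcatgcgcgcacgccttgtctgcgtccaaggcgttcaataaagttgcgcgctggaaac
Ndufb2: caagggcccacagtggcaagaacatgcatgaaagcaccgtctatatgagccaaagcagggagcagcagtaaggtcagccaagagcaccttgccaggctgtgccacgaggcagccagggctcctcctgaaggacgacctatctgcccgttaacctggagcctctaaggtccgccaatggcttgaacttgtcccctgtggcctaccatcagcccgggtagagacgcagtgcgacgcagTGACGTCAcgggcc
Ndufv1: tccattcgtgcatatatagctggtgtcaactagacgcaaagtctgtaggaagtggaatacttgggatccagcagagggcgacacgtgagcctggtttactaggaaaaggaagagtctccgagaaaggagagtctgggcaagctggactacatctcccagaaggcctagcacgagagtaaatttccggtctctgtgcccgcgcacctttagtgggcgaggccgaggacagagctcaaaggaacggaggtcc
Ndufab1: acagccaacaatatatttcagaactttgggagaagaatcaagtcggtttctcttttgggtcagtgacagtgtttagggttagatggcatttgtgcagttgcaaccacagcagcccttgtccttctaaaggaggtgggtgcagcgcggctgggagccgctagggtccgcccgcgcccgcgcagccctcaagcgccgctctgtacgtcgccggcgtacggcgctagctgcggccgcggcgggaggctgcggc

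Several samples stood apart or had unlike labels. For 3 arrays the labels of the second channel contradict the titles: TC113 and TC124 are called T there, and T132 is called TC. The titles set the groups here, since their counts of mice match those of the design text. The TC mouse TC113 had a mean macrophage marker level of 0.28 above the WT mean (log2) and a mean proliferation marker level of -0.03, while the other 5 TC mice had macrophage means from 1.81 to 3.73. Its microglia marker mean, -0.24, was the lowest of the TC mice. Its astrocyte marker mean, 0.63, lay within the TC range of 0.37 to 0.85, where T mice had -0.05 to 0.16. Its cortical excitatory marker mean, -2.18, was the lowest of all 22 mice. TC113 also had the highest mean level of the Nduf genes among TC mice, 0.21 above the WT mean. Of the other mice with unlike labels, TC124 had a macrophage mean of 3.73 and T132 one of 0.11. The range in T mice was -0.11 to 0.39. Arrays of slide 1 hold all WT mice and arrays of slide 2 hold all but 1 of the TC mice. Of the WTC mice, WTC116 and WTC125 were on slide 1, and WTC126, WTC135 and WTC148 on slide 2. Results were therefore also fitted with slide as a term and within slides. Mice on 1 array share the spot, with an intraspot correlation of 0.385 over all features, so their levels are not independent of each other.

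A log2 ratio is a difference between groups from limma's fit of the 11 array ratios, given with its standard error (SE). A level is the log2 channel value of 1 mouse after loess and Aquantile normalization with the dye effect removed. Levels are compared between mice for 1 gene, not between genes. A second fit of the separate channels uses differences between arrays as well, with 17 residual degrees of freedom against 7 in the ratio fit.

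The lesion in wild type mice (WTC against WT) went with lower Nduf values in most members, by small amounts. In the ratio fit 34 of 46 members had a log2 ratio below 0, against 49.4% of all features, and the member median was -0.11 (range -0.45 to 0.68) against 0.00 for all features. No member passed an adjusted p of 0.05 (0 of 46, against 0.023% of features in either direction). At an unadjusted p under 0.05, 7 members were lower and 1 higher, against 6.93% and 12.7% of all features. In the separate-channel fit the member median was -0.23, and 13 members fell and 1 rose at an adjusted p under 0.05, against 11.8% and 14.7% of all features. With array weights in the ratio fit, 10 members fell and 2 rose, against 15.6% and 22.8% of features. The authors' deposited table had 21 members lower and 1 higher at an adjusted p under 0.05, against 15.4% and 9.41% of its rows with a p-value, and the median of its member ratios was -0.34. The log base of the ratios in that deposited table is not stated, so their size is not compared with the log2 ratios here.

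All 7 core subunits were below 0 in the ratio fit of WTC against WT, with a median of -0.26. Ndufv1, the subunit that binds NADH and the flavin, had levels of 14.73, 14.86, 14.93, 15.06 and 15.32 in WTC mice, against 15.32 to 15.59 with a median of 15.43 in WT mice. All but the highest WTC mouse, WTC116, lie clearly below the lowest WT mouse, and WTC116 is level with it. The log2 ratio was -0.30 ± 0.10 (SE, ratio fit, limma adjusted p = 0.146), a fold of 0.814. In the separate-channel fit Ndufv1 fell by 0.41 ± 0.10 (adjusted p = 0.00692), and with a slide term by 0.36 (adjusted p = 0.0302). The authors' deposited table gives -0.63 with an adjusted p of 0.000295.

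Ndufs3, a core subunit of the arm that leads to the quinone site, had levels of 14.43, 14.46, 14.57, 14.6 and 14.79 in WTC mice, against 14.77 to 15.15 with a median of 14.86 in WT mice. The groups overlap by 1 WTC mouse, WTC116. Its log2 ratio was -0.24 ± 0.09 (limma adjusted p = 0.183), and it fell by 0.31 in the separate-channel fit (adjusted p = 0.0116). Ndufs1, the large iron-sulfur subunit, had levels of 13.81, 13.89, 14.13, 14.16 and 14.44 in WTC mice, against 14.39 to 14.78 with a median of 14.50 in WT mice. Again WTC116 alone lies within the WT range. The log2 ratio of Ndufs1 was -0.26 ± 0.10 (limma adjusted p = 0.224). Ndufs7, an iron-sulfur subunit near the quinone site, was at -0.26 ± 0.16, Ndufs8 at -0.22 ± 0.15 and Ndufv2, the other subunit at the NADH end, at -0.14 ± 0.14, none of which passed.

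In the matrix arm 6 of 9 accessory subunits were below 0, from -0.20 ± 0.15 for Ndufa6, which anchors an acyl carrier protein, to 0.06 ± 0.10 for Ndufa5, with a median of -0.07. In the proximal membrane arm 5 of 9 were below 0, with a median of -0.01. Its extremes were Ndufa10, a subunit with a nucleoside-kinase fold, at -0.45 ± 0.17 (limma adjusted p = 0.193), and Ndufa3 at 0.12 ± 0.13. In the distal membrane arm 8 of 10 were below 0, with a median of -0.13 and extremes of -0.26 ± 0.14 for Ndufb8 and 0.09 ± 0.13 for Ndufb7. Ndufb9, which binds an acyl carrier protein in the distal arm, was at -0.24 ± 0.09 (limma adjusted p = 0.197) and fell by 0.31 in the separate-channel fit (adjusted p = 0.0131). Of the assembly factors 7 of 8 were below 0, with a median of -0.11, and the extremes were Ndufaf3, an early factor of the quinone module, at -0.28 ± 0.13 and Ndufaf8, the partner of the hydroxylase Ndufaf5, at 0.15 ± 0.09. Ndufaf5 itself was at -0.27 ± 0.11 (limma adjusted p = 0.220).

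Ndufab1 stood against the other members. It encodes the mitochondrial acyl carrier protein, which is a subunit of both arms of complex I and also serves mitochondrial fatty acid and lipoic acid synthesis. Its levels were 8.0, 8.43, 8.50, 8.57 and 8.6 in WTC mice, against 7.69 to 8.09 with a median of 7.91 in WT mice. All but 1 WTC mouse, WTC126, lie above every WT mouse. The log2 ratio of WTC to WT was 0.68 ± 0.12 (limma adjusted p = 0.0838), a fold of 1.6, and it was the smallest p among the members. Ndufab1 rose by 0.57 ± 0.11 in the separate-channel fit (adjusted p = 0.00191), and the authors' deposited table gives 0.50 (adjusted p = 0.0486). It also had the lowest mean log2 intensity of the members, 8.19, where the brightest member, Ndufa13, had 16.4; both were well above background in every channel.

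Ndufa4, formerly counted as a complex I subunit and now placed with complex IV, had levels of 13.83, 14.03, 14.06, 14.08 and 14.14 in WTC mice, against 14.26 to 14.58 with a median of 14.45 in WT mice. The groups do not overlap. The log2 ratio was -0.23 ± 0.10 (limma adjusted p = 0.233), and it fell by 0.36 in the separate-channel fit (adjusted p = 0.0145). Its paralog Ndufa4l2, known as a hypoxia-induced gene, was at 0.13 ± 0.12 (limma adjusted p = 0.589).

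**Figure D1:**
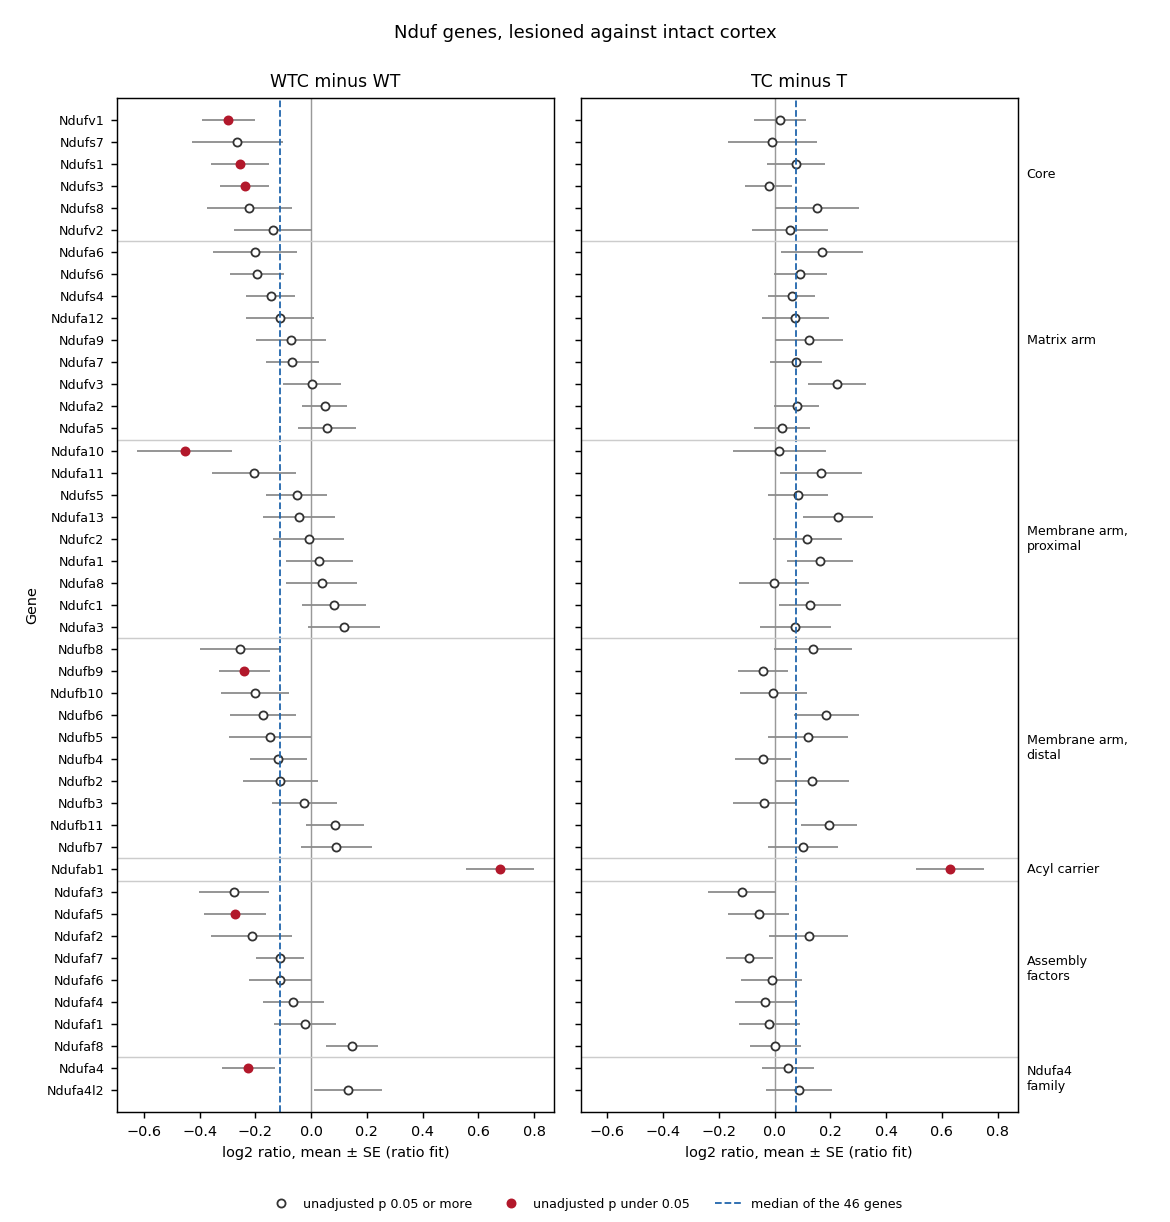
Log2 ratios of 45 of the 46 Nduf genes, WTC minus WT on the left and TC minus T on the right, as mean ± SE of the ratio fit, grouped by role. Filled points have an unadjusted p under 0.05 (7 lower and 1 higher on the left, 1 higher on the right), and the dashed line is the median of the 46 genes (-0.11 and 0.08).

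The lower values did not come equally from both arrays that pair WTC with WT. On the array of WTC116 and WT111, 44 of 46 members had a ratio below 0 (median -0.24, all features 49.4% below 0). On the array of WTC125 and WT144, 26 of 46 did (median -0.03, all features 47.1%). Without the first of these arrays the member median of WTC against WT was -0.05, and without the other it was -0.18. WT111 had the highest mean Nduf level of the WT mice, 0.17, and the highest mean of 10 neuron markers, 0.24. It also had the lowest striatal (-2.35), cortical excitatory (-0.87) and inhibitory (-0.49) marker means of its group. The part of these in the result was not tested.

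The scaling also moved this contrast. The Nduf probes are bright, with 30 of the 46 among the 2609 brightest features, and loess removes trends with intensity that median centring keeps. With median centring of each array the member median of WTC against WT was -0.34, where the median of all features was -0.10 and that of the 2609 brightest -0.21. Under this centring the brightest features shifted in the same direction as the members, by less. In TC against WTC the same centring gave 0.40 for the members, 0.08 for all features and 0.22 for the 2609 brightest.

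**Figure D2:**
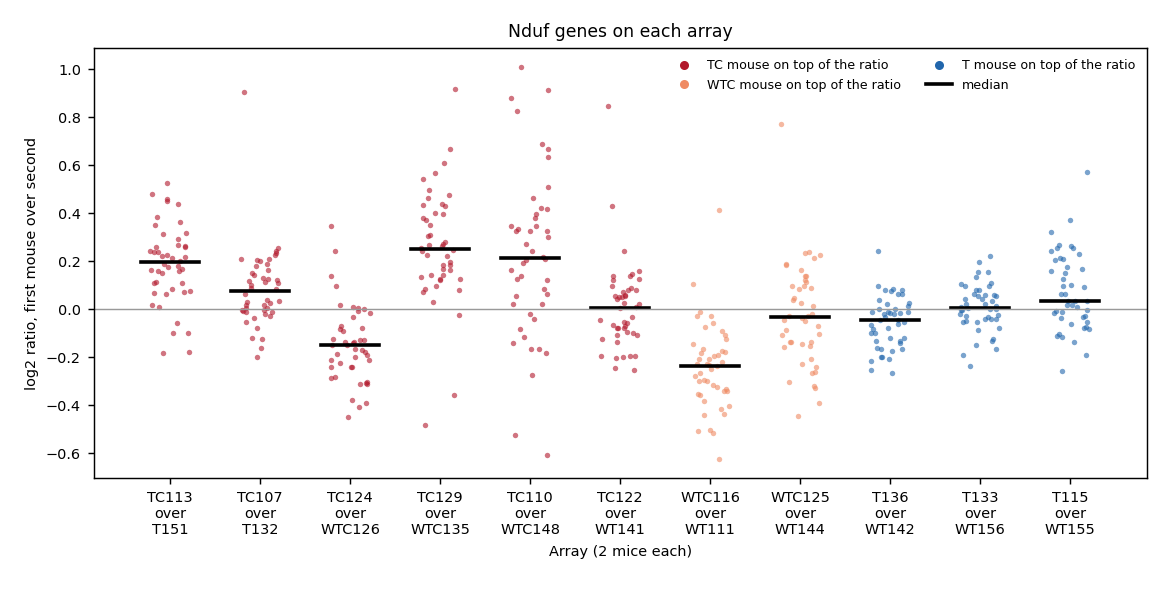
Log2 ratio of each Nduf gene on each of the 11 arrays, with the first-named mouse on top of the ratio, and the median as a bar. The 3 TC over WTC arrays have medians of -0.15, 0.25 and 0.21, and the 2 WTC over WT arrays -0.24 and -0.03.

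The lesion in transgenic mice (TC against T) gave small member values whose sign differed between the fits. In the ratio fit 33 of 46 members were above 0, against 51.3% of all features, with a median of 0.08 (range -0.12 to 0.63). No member passed (0 of 46, against 0% of features in either direction). Only Ndufab1 had an unadjusted p under 0.05, against 6.94% of features in the upward direction. In the separate-channel fit the median was -0.03, and Ndufab1 alone was called (4.99% of all features were called upward), as it was with array weights (8.06%). The authors' deposited table called 0 members, against 1.62% of rows upward.

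Ndufab1 had levels of 8.22 to 8.63 with a median of 8.48 in TC mice, against 7.72, 7.74, 8.04, 8.17 and 8.37 in T mice. Only the highest T mouse, T115, reaches into the TC range. The log2 ratio of TC to T was 0.63 ± 0.12 (limma adjusted p = 0.213), a fold of 1.55, and Ndufab1 rose by 0.52 ± 0.11 in the separate-channel fit (adjusted p = 0.0121). Without TC113 that fit gave 0.57 (adjusted p = 0.00415). The lesion effects on Ndufab1 in transgenic and wild type mice differed by -0.05 ± 0.14, with a limma adjusted p of 0.940.

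Ndufv1 had levels of 14.88 to 15.72 with a median of 15.32 in TC mice, against 15.32, 15.42, 15.43, 15.51 and 15.55 in T mice. TC mice lie both above and below all T mice. The log2 ratio was 0.02 ± 0.09 (limma adjusted p = 0.969). The other members of smallest p were Ndufv3, a small subunit at the NADH end, and Ndufb11, a distal membrane subunit. Ndufv3 had levels of 15.10 to 15.37 with a median of 15.32 in 5 TC mice, against 15.00, 15.07, 15.09, 15.19 and 15.24 in T mice, with a ratio of 0.22 ± 0.10 (limma adjusted p = 0.439). Its spot on the array of TC124 and WTC126 was an outlier and was left out, so its fit rests on 10 arrays. Ndufb11 had levels of 14.44 to 15.27 with a median of 14.98 in TC mice, against 14.85, 14.86, 14.89, 14.94 and 15.05 in T mice, with a ratio of 0.20 ± 0.10 (limma adjusted p = 0.478). For both genes the groups overlap.

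By role, 5 of 7 core subunits were above 0 in TC against T, from -0.02 ± 0.09 for Ndufs3 to 0.15 ± 0.15 for Ndufs8, with a median of 0.05. All 9 matrix arm subunits were above 0, by 0.03 to 0.22, and 8 of 9 proximal subunits were, up to 0.23 ± 0.13 for Ndufa13. The distal subunits had 6 of 10 above 0, with a median of 0.11. Of the assembly factors 6 of 8 were below 0, with a median of -0.03 and extremes of -0.12 ± 0.12 for Ndufaf3 and 0.12 ± 0.14 for Ndufaf2, a late assembly factor. Ndufa4 was at 0.05 ± 0.09 and Ndufa4l2 at 0.09 ± 0.12. These signs are those of the ratio fit. In the separate-channel fit of TC against T 29 of 46 members were below 0, among them 7 of 7 core subunits (median -0.07), 5 of 9 matrix arm subunits, 4 of 9 proximal and 4 of 10 distal subunits, and 8 of 8 assembly factors (median -0.11).

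The sign of the TC against T median was not the same in every fit and array set. The array of TC113 and T151 had 41 of 46 members above 0 (median 0.20), and that of TC107 and T132 had 32 (median 0.08). Without the array of TC113 and T151 the member median of TC against T was -0.01, and the separate-channel median of -0.03 became -0.11 without TC113. Within slide 1 the median was 0.01 and within slide 2 it was 0.14.

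The transgene in intact mice (T against WT) showed no called member. In the ratio fit 29 of 46 members were below 0, against 50.8% of all features, and the median was -0.05 (range -0.19 to 0.18). The sign of this median was the opposite in 5 alternatives, which ran from 0.0024 (separate channels with a slide term) to 0.03 (within slide 1) and included median centring (0.02). The count at an adjusted p under 0.05 was 0 of 46 in limma's ratio fit, against 0% of features, and it was 0 at an unadjusted p under 0.05, against 2.92% of features. The separate-channel fit also had 0 at an adjusted p under 0.05, against 0% of features, and 0 at an unadjusted p under 0.05. Ndufa4 had the smallest p, at -0.17 ± 0.09 (limma adjusted p = 0.982), with levels of 14.31, 14.32, 14.35, 14.45 and 14.50 in T mice, against 14.26 to 14.58 in WT mice. Ndufs6, which holds a zinc site of the matrix arm, had levels of 15.17, 15.19, 15.27, 15.29 and 15.32 in T mice, against 15.12 to 15.62 with a median of 15.37 in WT mice, and a ratio of -0.16 ± 0.09. Ndufa7, a matrix arm subunit, had levels of 14.71, 14.80, 14.84, 14.88 and 14.94 in T mice, against 14.73 to 15.05 with a median of 14.96 in WT mice, and a ratio of -0.15 ± 0.09. In all 3 genes the T and WT ranges overlap widely.

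The core subunits were spread on both sides of 0 in T against WT, with Ndufs7 at -0.12 ± 0.14, Ndufs8 at 0.09 ± 0.14 and Ndufv1 at -0.04 ± 0.09. Of the distal subunits 9 of 10 were below 0 (median -0.08), and Ndufb6 was the exception at 0.15 ± 0.11. Of the assembly factors 6 of 8 were above 0 (median 0.05). The array of T136 and WT142 had 32 of 46 members below 0, that of T133 and WT156 had 21, and that of T115 and WT155 had 18.

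The transgene after the lesion (TC against WTC) went with higher values of most members. In the ratio fit 36 of 46 members were above 0, against 44.4% of all features, with a median of 0.13 (range -0.20 to 0.60) against -0.02 for all features. No member passed an adjusted p of 0.05 (0 of 46, against 0% of features in either direction). At an unadjusted p under 0.05, 12 members were higher and 0 lower, against 6.12% of features in the upward direction. In the separate-channel fit the median was 0.14 and 0 members were called, against 0.288% of features upward. With array weights 9 members rose, against 4.54% of features. The authors' deposited table calls 25 members higher and 0 lower, against 7.22% and 3.94% of its rows, with a member median of 0.36.

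Ndufb6, a distal membrane subunit, had the smallest p. Its levels were 13.37 to 14.10 with a median of 13.92 in TC mice, against 12.85, 13.24, 13.41, 13.45 and 13.78 in WTC mice. Only TC124 and TC110 of the TC mice lie within the WTC range. The log2 ratio was 0.51 ± 0.10 (limma adjusted p = 0.131), a fold of 1.42, and 0.50 ± 0.12 in the separate-channel fit (adjusted p = 0.0564). A second Ndufb6 probe gave 0.34, and the authors' deposited table gives 0.75 (adjusted p = 0.00417).

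Ndufa10, whose promoter with a CRE is printed above, had levels of 12.57 to 13.57 with a median of 13.17 in TC mice, against 11.62, 12.61, 12.65, 12.90 and 13.34 in WTC mice. The groups overlap, and 1 WTC mouse, WTC148, lies far below the rest. Its log2 ratio was the largest of the 46, 0.60 ± 0.15 (limma adjusted p = 0.163). Ndufa11, the other proximal subunit with a CRE, was at 0.38 ± 0.13 (limma adjusted p = 0.253), and Ndufb2, the third gene with a CRE, at 0.16 ± 0.12 (limma adjusted p = 0.563). In T against WT, Ndufa10 was at 0.13 ± 0.15, Ndufa11 at 0.01 ± 0.14 and Ndufb2 at -0.09 ± 0.12. The promoter of Ndufb6, the member of smallest p in TC against WTC, holds no full CRE, nor does that of Ndufv1. Both are among the 16 members with the shorter site TGACG in their 300 bases. The part of the CRE in these values was not tested.

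All 7 core subunits were above 0 in TC against WTC, with a median of 0.24. The iron-sulfur subunit Ndufs8 was at 0.47 ± 0.13 (limma adjusted p = 0.196) and Ndufv1 at 0.28 ± 0.08 (limma adjusted p = 0.215). Ndufv1 levels were 14.88 to 15.72 in TC mice, against 14.73 to 15.32 in WTC mice, and the ranges overlap. Ndufs1 was at 0.24 ± 0.09, Ndufv2 at 0.22 ± 0.12, Ndufs7 at 0.14 ± 0.14 and Ndufs3 at 0.13 ± 0.08, none of which passed. Of the matrix arm subunits 6 of 9 were above 0, between -0.07 ± 0.07 for Ndufa2 and 0.30 ± 0.13 for Ndufa6. The proximal group had 7 of 9 above 0, with Ndufa3 lowest at -0.20 ± 0.11, and the distal group 8 of 10, with Ndufb7 lowest at -0.13 ± 0.11. Of the assembly factors 6 of 8 were above 0, led by Ndufaf2 at 0.40 ± 0.13 (limma adjusted p = 0.229), while Ndufaf8 was at -0.18 ± 0.08. Ndufa4 was at 0.11 ± 0.08 and Ndufa4l2 at -0.13 ± 0.11.

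**Figure D3:**
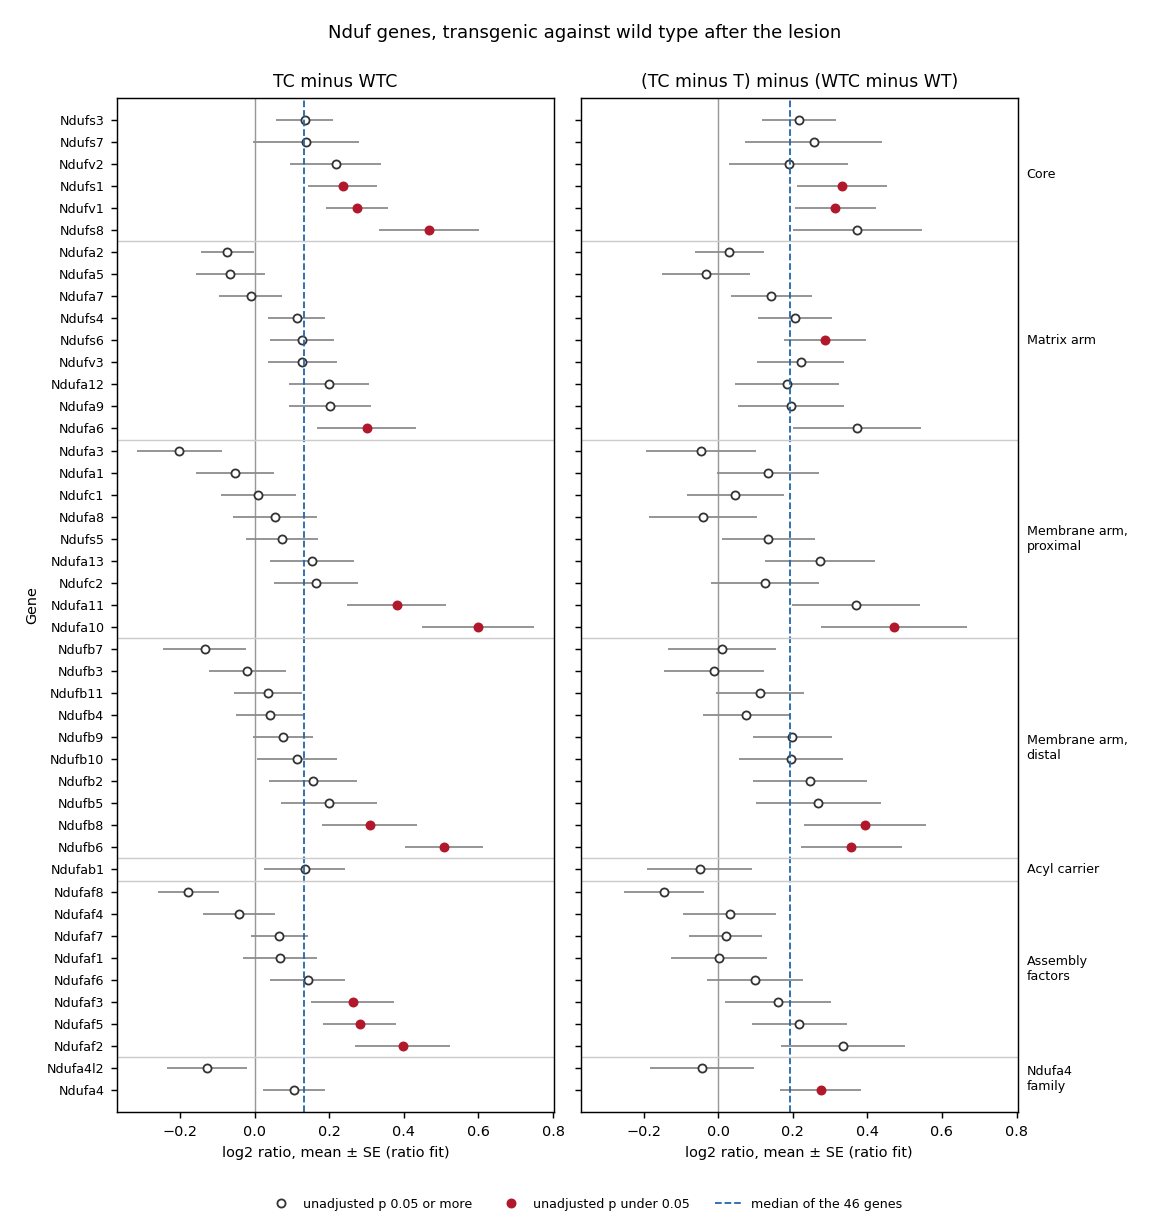
Log2 ratios of 45 of the 46 Nduf genes, TC minus WTC on the left and the difference of the lesion effects, (TC minus T) minus (WTC minus WT), on the right, as mean ± SE of the ratio fit, grouped by role. Medians of the 46 genes, drawn as dashed lines, are 0.13 and 0.19, and filled points have an unadjusted p under 0.05 (11 on the left, 7 on the right).

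The 3 arrays that pair TC with WTC did not point the same way. On the array of TC129 and WTC135, 43 of 46 members were above 0 (median 0.25), and on that of TC110 and WTC148, 35 were (median 0.21). On the array of TC124 and WTC126, 38 of the 45 members measured were below 0 (median -0.15). TC124 is 1 of the mice with unlike labels. Its macrophage marker mean was 3.73, while T mice, the group its second label names, had -0.11 to 0.39. Without that array the member median of TC against WTC was 0.21, without the array of TC129 it was 0.07, and without that of TC110 it was 0.10.

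The difference of the lesion effects asks whether the lesion changed the members differently in transgenic and wild type mice. In the ratio fit 39 of 46 members were above 0, against 45.4% of all features, with a median of 0.19 (range -0.14 to 0.47). No member passed (0 of 46, against 0% of features in either direction), while 8 members were above 0 at an unadjusted p under 0.05, against 2.93% of features. With separate channels 0 members passed an adjusted p of 0.05, against 0% of features, and 8 were above 0 at an unadjusted p under 0.05, against 3.32%. Ndufv1 had the smallest p, with a difference of 0.31 ± 0.11 (limma adjusted p = 0.806). Ndufs1 was at 0.33 ± 0.12, Ndufb6 at 0.36 ± 0.14, Ndufs6 at 0.29 ± 0.11 and Ndufa4 at 0.28 ± 0.11, each with the same adjusted p. Ndufa10 had the largest difference, 0.47 ± 0.20, and Ndufaf8 the lowest, -0.14 ± 0.11. The core group had 7 of 7 above 0 (median 0.31), the matrix arm 8 of 9 (0.20), the proximal arm 7 of 9 (0.13), the distal arm 9 of 10 (0.20) and the assembly factors 7 of 8 (0.06). The fitted values of TC against WTC, WTC against WT and this difference share WTC mice.

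**Figure D4:**
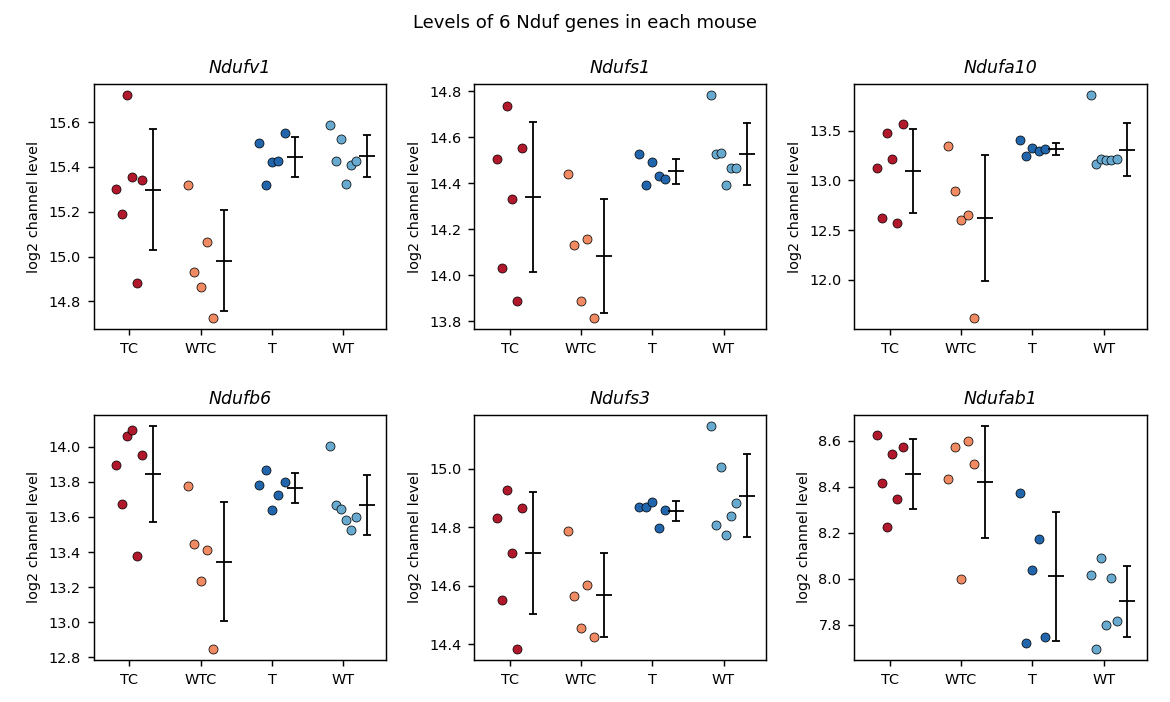
Log2 channel levels of 6 Nduf genes in every mouse, by group (TC, WTC, T, WT), with the group mean ± SD beside the points. For Ndufv1 no WTC mouse lies above the lowest WT mouse, and for Ndufab1 all TC mice lie above all WT mice; vertical scales differ between genes.

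The mice of the lesioned groups differed among themselves more than the intact mice did. The mean level of the 46 genes relative to the WT mean was -0.08 ± 0.25 (SD, n = 6) in TC, -0.24 ± 0.16 (SD, n = 5) in WTC and 0.00 ± 0.04 (SD, n = 5) in T, with an SD of 0.10 (n = 6) in WT. TC mice ran from -0.47 in TC124 to 0.21 in TC113, WTC mice from -0.49 in WTC148 to -0.07 in WTC116, T mice from -0.05 to 0.06 and WT mice from -0.13 to 0.17. TC124 and WTC126, both low in the mean, shared an array, as did TC110 and WTC148. The difference in spread was not tested.

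The other respiratory complexes were read from lists of 38 nuclear subunits. In WTC against WT 29 of 38 were below 0 with a median of -0.12, and in TC against WTC 35 of 38 were above 0 with a median of 0.15; no subunit passed in the ratio fit. For the subunits of complex I alone (36 genes) the medians were -0.11 and 0.13. Cox5a, a complex IV subunit, was at -0.42 ± 0.10 in WTC against WT (limma adjusted p = 0.0971) and 0.57 ± 0.08 in TC against WTC (limma adjusted p = 0.131). Cox5a fell by 0.56 in WTC against WT in the separate-channel fit (limma adjusted p = 0.00596), and rose by 0.59 in TC against WTC there (limma adjusted p = 0.0476). Atp5b, the catalytic subunit of ATP synthase, was at -0.37 ± 0.11 and 0.49 ± 0.10, and Cyc1, cytochrome c1 of complex III, at -0.38 ± 0.16 and 0.54 ± 0.14. Of the 13 measured complex I assembly factors with other names, 8 were below 0 in WTC against WT (median -0.20), with Chchd4, an import factor of the intermembrane space, at -0.48 ± 0.15 (limma adjusted p = 0.135), and 10 were above 0 in TC against WTC (median 0.18). Lyrm2, a LYR motif protein of the same list, had the opposite signs, with 0.28 ± 0.10 in WTC against WT (limma adjusted p = 0.162) and -0.30 ± 0.08 in TC against WTC (limma adjusted p = 0.193). With separate channels Chchd4 fell by 0.70 (limma adjusted p = 0.00482) and Lyrm2 rose by 0.31 (limma adjusted p = 0.0198) in WTC against WT. The mean levels of complexes II to V ran as those of the Nduf genes by group, with -0.05 ± 0.21 in TC (SD, n = 6), -0.24 ± 0.16 in WTC (SD, n = 5), -0.01 ± 0.03 in T (SD, n = 5) and an SD of 0.09 in WT (n = 6).

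Marker levels of cell types moved with the groups. The mean of 10 neuron markers relative to WT ranged from -0.83 to -0.03 in TC, from -0.57 to -0.27 in WTC, from -0.18 to 0.01 in T and from -0.15 to 0.24 in WT. In WTC against WT 9 of 10 neuron markers were below 0 (median -0.30) and 0 passed in the ratio fit. The mean of 8 macrophage markers ranged from 0.28 to 3.73 in TC, from 2.24 to 3.45 in WTC, from -0.11 to 0.39 in T and from -0.23 to 0.25 in WT, and all 8 were above 0 in WTC against WT (median 2.0). Gfap, the marker of reactive astrocytes, was at 3.47 ± 0.46 in WTC against WT (limma adjusted p = 0.0565) and at 2.41 ± 0.45 in TC against T (limma adjusted p = 0.213), and the microglial gene Aif1 at 1.61 ± 0.40 and 0.96 ± 0.39. Creb1 itself was at 0.05 ± 0.15 in T against WT. In TC against WTC the medians were -0.29 for macrophage, -0.33 for microglia, -0.55 for proliferation and 0.09 for the 10 neuron markers. Of these 10, 6 were above 0 and 4 below. Lists of narrower neuron types had the other sign there. The median was -0.16 for cortical excitatory markers (6 of 10 below 0) and -0.34 for inhibitory markers (6 of 8 below 0).

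Markers of tissue next to cortex also varied. The mean of 10 striatal markers ranged from -2.79 to -0.16 in TC, from -3.17 to 0.57 in WTC, from -2.73 to 0.21 in T and from -2.35 to 1.15 in WT. The mean of 8 choroid plexus markers ranged from -1.74 to 3.41 in TC, from -0.70 to 3.51 in WTC, from -1.32 to 0.62 in T and from -1.63 to 3.50 in WT. In TC against WTC all 10 striatal markers were below 0 (median -1.83, each at an unadjusted p under 0.05), as were all 8 choroid plexus markers (median -2.55) and all 10 oligodendrocyte markers (median -0.41). In WTC against WT the 10 striatal markers were also below 0 (median -0.80), while the 8 choroid plexus markers (median 2.44) and the 10 oligodendrocyte markers (median 0.24) were above 0. No marker of these lists passed an adjusted p of 0.05 in either ratio fit. All 10 striatal markers were also below 0 in T against WT (median -1.35) and in TC against T (median -1.46). The Nduf medians there were -0.05 and 0.08. In T against WT all 8 choroid plexus markers (median -1.06) and all 10 oligodendrocyte markers (median -0.43) were below 0. In TC against T both of these lists were above 0 in every marker (medians 0.99 and 0.33). The 4 lowest mice in the Nduf mean, WTC148, TC124, WTC126 and TC110, had macrophage means of 3.45, 3.73, 2.24 and 3.23 and neuron means of -0.57, -0.83, -0.51 and -0.31. The other lesioned mice overlap with them. Their macrophage means ran from 0.28 (TC113) to 3.30 (WTC135) and their neuron means from -0.53 (WTC125) to -0.03 (TC113). The part of tissue and cell type composition in the Nduf values was not tested.

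**Figure D5:**
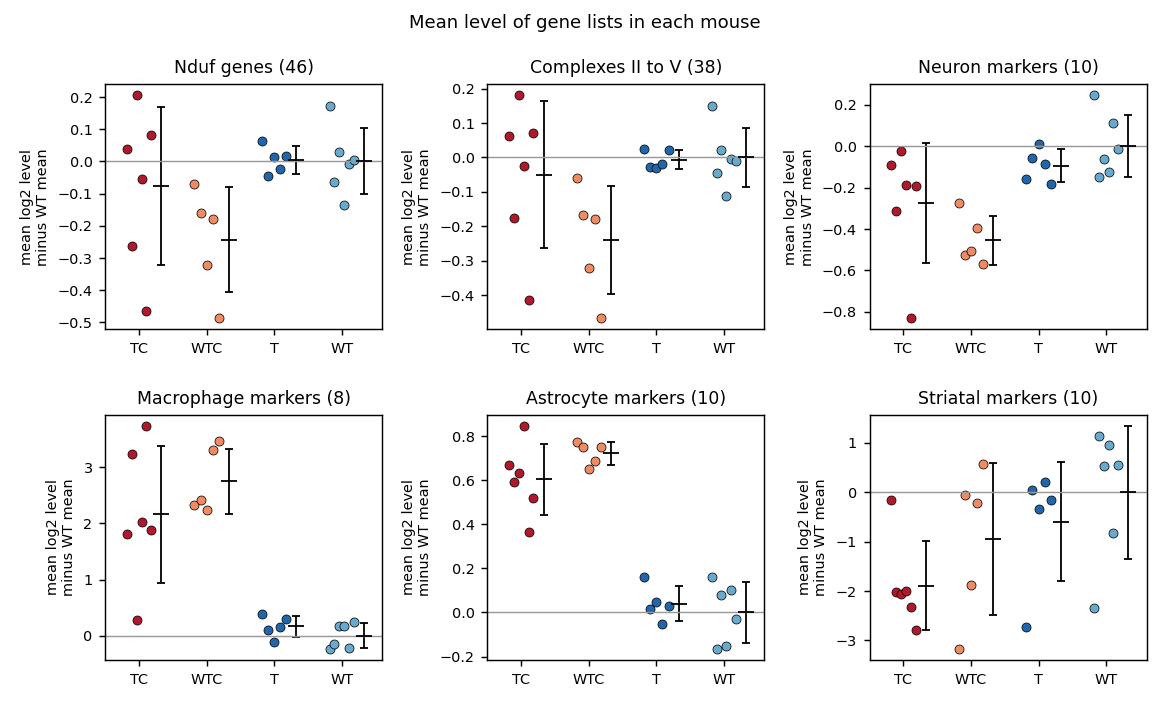
Mean log2 level of gene lists in every mouse relative to the WT mean, by group (TC, WTC, T, WT), with the group mean ± SD beside the points. Nduf genes and complexes II to V run alike over the groups, macrophage and astrocyte markers are high in TC and WTC mice with 1 TC mouse at a macrophage mean of 0.28, and striatal markers spread widely in all groups.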

How the data were processed

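The members and gene lists were chosen with earlier results of these data known. The deposited array files hold, per the file headers, the median spot and background intensity of each channel, neither corrected nor normalized. They were written by Agilent Feature Extraction in version 10.7.3.1. Its log10 ratio of red over green, deposited by the authors per the file headers, was used as an alternative. A further deposited table gives the authors' log ratios, read as log2 although their base is not stated, and adjusted p-values in 3 contrasts. The submitters' processing notes name limma. In the deposited table the adjusted p column of WTC minus WT holds 766 values above 1, which were not read.

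Here, normexp (offset 50) and loess within arrays were run in limma 3.58.1 (R 4.3.3), with control and outlier spots at weight 0. No spot was saturated (0 flags), and 56.6% to 65.3% of spots per channel were well above background; the number of arrays limits the precision. Probes needed to be well above background in 5 or more of 22 channels. Symbols came from the RefSeq gene table, and 8 members had more than 1 probe, of which those of Ndufb11 and Ndufaf4 differed most, at 0.08 and -0.15 and at -0.06 and -0.38 in WTC minus WT.

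The ratio fit used lmFit and eBayes, two-sided, with a dye term and 7 residual degrees of freedom, with Benjamini-Hochberg adjustment over all 26082 features. Each channel is a separate mouse per the labels, so the spread behind the p-values is that between mice. The fit was run on simulated ratios with planted effects larger than any fitted Nduf log2 ratio. Effects of the size seen here were not simulated. Each mouse was on 1 array in these files, although the design text describes repeated hybridisation. Genes were named by role, smallest p and extreme ratio; 1 member that the rule names is counted but not reported here by itself. Alternatives were other background, scaling, filter, probe, dye, slide, weight and label settings, separate-channel fits, and each array left out. Promoters came from RefSeq (GRCm38.p6). No coordinates of probes are given, since the files name no genome build.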

Additional observations from a re-analysis of the deposited data

Results flagged for a closer look

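Of 52 sets of 4 to 6 mice examined (12 genes and the member mean in 4 groups), 5 held a mouse set far from the others by Dixon's gap, where chance flags about 1 set in 20. WT111 was the highest WT mouse in 3 of them. Its level was 13.85 for Ndufa10, where the next WT mouse had 13.22, 14.78 for Ndufs1, where the next had 14.53, and 14.00 for Ndufb6, where the next had 13.67. WT111 shares its array with WTC116, the array whose omission moved the WTC against WT median to -0.05. WTC126 was the lowest WTC mouse for Ndufab1, at 8.0 where the next had 8.43. TC124, on the same array, was the lowest TC mouse for Ndufa4, at 13.67 where the next had 14.20. The other features of these mice were not tested against these levels.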

How the results depend on the processing

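The member median kept its sign in 28 of 28 alternatives of WTC minus WT (-0.40 to -0.05), 29 of 29 of TC minus WTC (0.07 to 0.40) and 28 of 28 of the difference (0.13 to 0.40), but in 25 of 29 of TC minus T (-0.11 to 0.14) and 23 of 28 of T minus WT (-0.08 to 0.03). The SD of the member mean between mice, pooled within groups, was 0.161 and exceeds most of the ratio-fit medians. It is the spread of single mice, not the error of a difference between groups. It pools groups with SDs from 0.04 (T) to 0.25 (TC). The count of called members was 0 in the ratio fit of each contrast and also 0 in 126 of 142 alternatives. Median centring gave -0.34 in WTC minus WT, 0.40 in TC minus WTC and 0.40 in the difference of the lesion effects; a separate-channel fit on these ratios, chosen after seeing the data, gave -0.40, 0.38 and 0.38, with 25, 3 and 1 members called in WTC minus WT, TC minus WTC and TC minus T; 20.6% of all features then fell and 9.04% rose in WTC minus WT, and 2.15% and 5.11% rose in TC minus WTC and TC minus T. In the separate-channel fits 14 members were called in WTC minus WT (20 without TC113, against 15.6% of features lower and 16.7% higher, and 5 with a slide term, against 4.86% of features lower and 10.1% higher there) and 1 in TC minus T under each. In TC minus WTC the fit with a slide term called 1 (Ndufb6, higher, as were 0.786% of features). Without TC113 the TC minus T median was -0.11. Array weights called 12, 1 and 9 members in WTC minus WT, TC minus T and TC minus WTC. These weights ran from 0.38 (TC110 and WTC148) to 5.39 (WTC125 and WT144). Without the 3 arrays of unlike labels 1 member was called in WTC minus WT (Ndufab1, higher, as were 5.21% of features), and omitting 1 array gave 0 to 3, with 1 higher without the array of TC113 (4.75% of features) and 2 lower and 1 higher without that of TC124 (1.41% and 4.66%). With the channel 2 labels the medians were -0.08, 0.13, -0.07, 0.16 and 0.24 in the order given next. With 1 array left out the medians ran from -0.18 to -0.05 (WTC minus WT), -0.01 to 0.10 (TC minus T), -0.08 to -0.02 (T minus WT), 0.07 to 0.21 (TC minus WTC) and 0.14 to 0.25 (difference). Of 512 single-gene values, 31 were newly called and 14 changed sign, all of Ndufv1 in 2 contrasts where its ratio-fit value was near 0. In TC minus T (0.02) it was -0.089 (separate channels), -0.19 (without TC113), -0.053 (slide term), -0.060 (median-centred channels), -0.017 (Agilent ratio), -0.013 (array weights), -0.087 (slide 1) and -0.0094 (without the 3 arrays), and it ran from -0.058 to 0.044 without 1 array. In T minus WT (-0.04) it was 0.010 (slide term), 0.038 (median centring), 0.022 (median-centred channels) and 0.0040 (without the 3 arrays). WTC minus WT, T minus WT and the difference could not be fitted within slide 2. The ratio fit compares the 2 mice of each array with each other; no block by replicate number could be added, since the labels give mouse numbers and no replicate numbers shared between groups. The cause of each shift was not tested.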
